A study of Mus musculus with 3 samples.

Results

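The respiratory chain and ATP synthase genes were followed in 3 single-cell libraries of mouse cornea and limbus. The nuclear genes were all rows whose symbol began with Ndufa, Ndufb, Ndufc, Ndufs, Ndufv, Uqcr, Cox4i, Cox5, Cox6, Cox7, Cox8, Sdh or Atp5, without Ndufa4l2 and the 8 Ndufaf assembly factors. That gave 89 nuclear genes, and the 13 protein genes of the mitochondrial genome (symbols starting mt-) were taken beside them, so 102 of the 32285 rows were members. By complex, the nuclear genes were 37 of complex I, 4 of complex II with 4 assembly factors of it, 8 of complex III, 19 of complex IV and 17 of complex V. Ndufa4 was counted with complex IV, of which its product is a subunit despite its name.

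The libraries came from 1 wild-type mouse with nitrogen mustard (NM) injury given losartan, 1 wild-type mouse with NM injury given saline, and 1 uninjured wild-type mouse. NM alkylates DNA, and losartan is an antagonist of the type 1 receptor for angiotensin II. The age of the mice, the dose of losartan and the time since injury were not stated in the labels. With 1 library per group no difference has a replicate check, no test between animals was possible, and every interval is an exact 95% interval for counting error only. After filtering there were 4919 losartan, 5800 saline and 11233 uninjured cells, with medians of 6213, 4122.5 and 11445 unique molecular identifiers (UMIs, counts of captured molecules) per cell. Between 5 and 21 cell barcodes were shared by any pair of libraries.

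The respiratory chain moves electrons from nutrients to oxygen in the inner mitochondrial membrane and uses the energy released to pump protons, and ATP synthase uses the returning protons to make ATP. Complex I takes electrons from NADH, complex II from succinate, complex III passes them to cytochrome c and complex IV to oxygen. Most subunits are encoded in the nucleus and imported, while a core of complexes I, III, IV and V is encoded in the mitochondrial genome, and complex II is encoded in the nucleus alone. The corneal epithelium is a fast-renewing tissue without blood vessels, and it is known for a large use of glycolysis beside respiration.

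Promoter windows of nuclear members, from 250 bases before to 50 bases after the start of the gene (RefSeq, GRCm38.p6), were found for 72 of the 89 genes. The core GCATGCGC of the nuclear respiratory factor 1 (NRF1) motif was searched on both strands and stood in 10 of the 72 (13.9%), against 824 of all 27025 symbols in the table (3.05%). The ETS core CCGGAAG stood in 20 (27.8%), against 2683 symbols (9.93%), and an exact 10-letter form of the YY1 motif in 5 (6.94%), against 269 symbols (1.0%). A match is a description of letters and not a binding site. The windows of 4 members that recur in the results are shown 5′ to 3′, all on the minus strand, with NRF1 and ETS matches of either strand in capitals. Ndufa4 at chr6:11907401-11907700 was shown as the most abundant nuclear member of the epithelium and held neither match. Cox6a1 at chr5:115348909-115349208, Uqcr11 at chr10:80406772-80407071 and Atp5k at chr5:108434350-108434649 had the highest log2 ratios of an epithelial, a stromal and a macrophage comparison, and held both motifs. These windows were picked for display, and a relation of motifs to ratios was not tested. Sdhb also held both motifs but was lower in saline than in uninjured epithelium. Ndufa4, without either, was higher in losartan than in saline epithelium.
Ndufa4: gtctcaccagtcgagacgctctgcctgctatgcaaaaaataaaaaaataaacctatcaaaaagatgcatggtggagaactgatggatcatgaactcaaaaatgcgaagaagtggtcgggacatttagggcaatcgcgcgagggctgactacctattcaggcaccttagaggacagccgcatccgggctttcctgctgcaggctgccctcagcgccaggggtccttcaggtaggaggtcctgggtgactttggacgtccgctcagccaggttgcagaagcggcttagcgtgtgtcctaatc
Cox6a1: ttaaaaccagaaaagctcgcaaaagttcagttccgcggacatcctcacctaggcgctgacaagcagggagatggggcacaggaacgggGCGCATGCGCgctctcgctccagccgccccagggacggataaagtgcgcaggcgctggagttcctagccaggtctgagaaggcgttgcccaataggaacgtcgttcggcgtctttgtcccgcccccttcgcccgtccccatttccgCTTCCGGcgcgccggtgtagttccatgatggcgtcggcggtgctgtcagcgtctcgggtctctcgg
Uqcr11: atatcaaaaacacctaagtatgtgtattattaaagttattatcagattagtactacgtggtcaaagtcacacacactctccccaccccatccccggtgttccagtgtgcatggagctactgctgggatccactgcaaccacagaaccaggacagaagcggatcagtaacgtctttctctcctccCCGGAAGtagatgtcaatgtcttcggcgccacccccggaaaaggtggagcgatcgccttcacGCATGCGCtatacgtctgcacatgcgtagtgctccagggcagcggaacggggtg
Atp5k: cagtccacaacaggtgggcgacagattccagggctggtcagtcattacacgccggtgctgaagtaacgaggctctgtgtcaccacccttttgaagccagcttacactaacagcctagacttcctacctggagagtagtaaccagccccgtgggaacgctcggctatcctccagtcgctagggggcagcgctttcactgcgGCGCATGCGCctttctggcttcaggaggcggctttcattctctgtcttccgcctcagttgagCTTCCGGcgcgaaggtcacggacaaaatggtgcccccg
The first base of the NRF1 match lay 4 bases before the start in Uqcr11, and the overlapping matches of the 2 strands began 162 and 160 bases before it in Cox6a1 and 50 and 48 bases before it in Atp5k. The ETS match began 16 bases before the start in Cox6a1, 66 before it in Uqcr11 and 12 after it in Atp5k.

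Among the mitochondrial genes, neighbours share bases, which matters for reading single rows. The end of mt-Atp8 is also the start of mt-Atp6, and both encode subunits of ATP synthase. The mt-Atp8 gene, at chrM:7766-7969 on the plus strand of GRCm38 (GENCODE M21), is shown for this overlap, with the 43 shared bases in capitals.
mt-Atp8: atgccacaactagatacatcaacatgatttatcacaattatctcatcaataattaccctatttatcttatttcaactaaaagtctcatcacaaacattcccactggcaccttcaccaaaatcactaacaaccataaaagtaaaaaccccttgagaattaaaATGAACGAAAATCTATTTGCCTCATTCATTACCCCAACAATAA
In addition mt-Nd4l and mt-Nd4 share 7 bases on 1 strand, mt-Nd5 and mt-Nd6 share 14 on opposite strands, and mt-Atp6 and mt-Co3 share 1. How reads over shared bases were counted was not stated, so single values of mt-Atp8 and mt-Nd4l are uncertain.

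Cells were grouped into clusters without using any member gene and named from fixed markers, so that cell classes were not defined by the respiratory chain. Epithelial-like cells numbered 1038 losartan, 838 saline and 7976 uninjured cells, and stromal fibroblast-like cells 728, 694 and 432. Macrophage or monocyte-like cells numbered 487 losartan and 760 saline cells, and neutrophil-like cells 1356 and 2890. The uninjured library had only 19 macrophage-like cells and 1 neutrophil-like cell and was not compared in these classes. Clusters that met no naming rule held 25.1% of losartan, 10.5% of saline and 22.7% of uninjured cells and are described by number.

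Nuclear respiratory chain RNA took a narrow share of all UMIs in the epithelium and a low one in neutrophils. In epithelial-like cells the 89 nuclear genes together made up 1.81% of UMIs in the losartan library, 1.71% in the saline library and 1.59% in the uninjured library. Mitochondrial RNA made up 1.28%, 1.34% and 1.45% in the same order, so there were 0.71, 0.785 and 0.913 mitochondrial UMIs per nuclear member UMI. In stromal-like cells the nuclear share was 1.68% in the losartan, 0.815% in the saline and 1.01% in the uninjured library, and the mitochondrial share was 1.94%, 3.99% and 1.87%. Macrophage-like cells had nuclear shares of 1.54% (losartan) and 1.09% (saline), beside mitochondrial shares of 1.42% and 1.12%. Neutrophils stood far below the others, with nuclear shares of 0.466% and 0.337% and mitochondrial shares of 0.188% and 0.176%. All of these are shares of captured RNA, not amounts per cell.

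**Figure D1:**
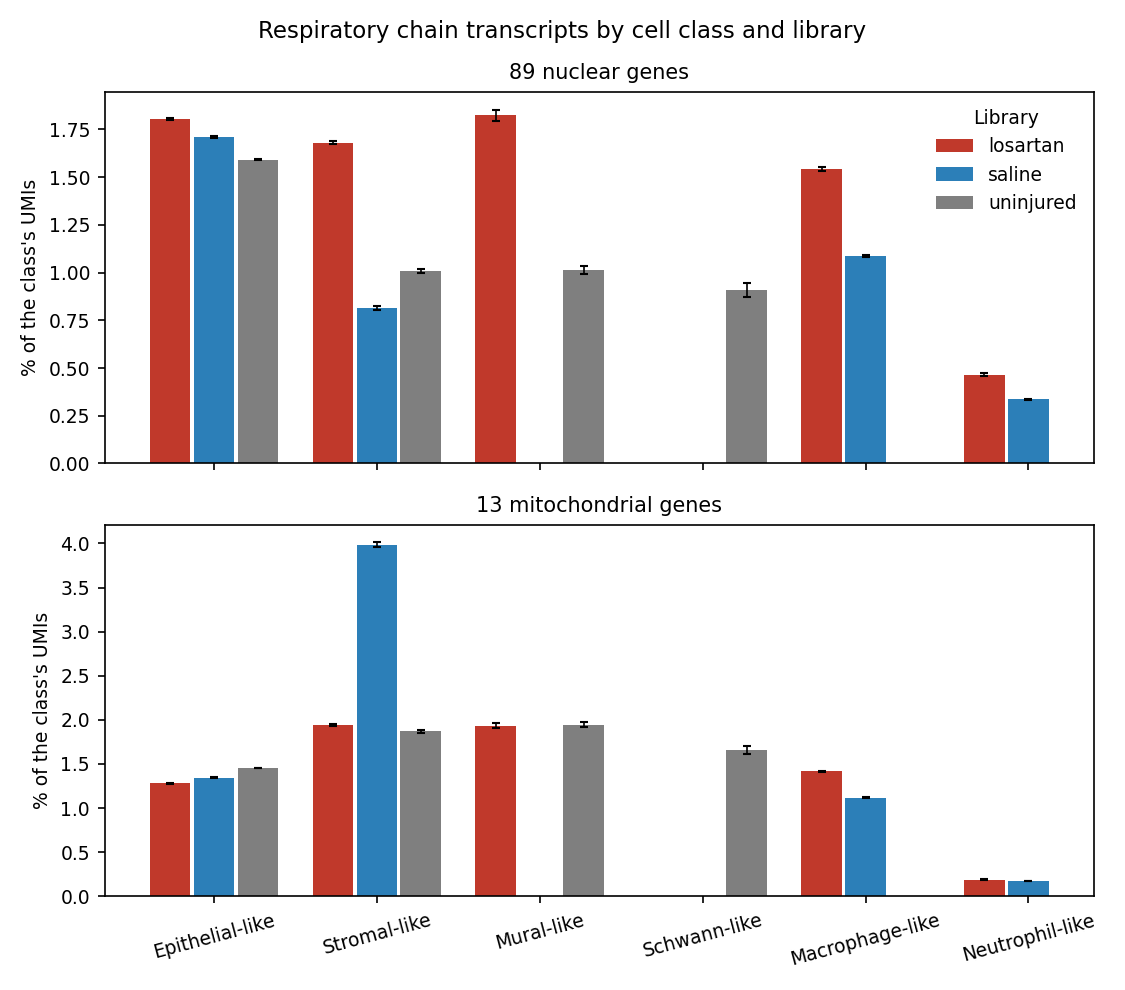
Share of UMIs (%) of the 89 nuclear and the 13 mitochondrial respiratory chain genes in each cell class and library, with bars of exact 95% counting intervals. The saline stroma stands apart with 3.99% mitochondrial and 0.815% nuclear UMIs, and neutrophils are lowest on both, at or below 0.466%.

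In the epithelium, the injured libraries had nuclear shares close to that of the uninjured one, while the levels of the complexes differed. Summed nuclear complex IV RNA stood at 7426 CPM (UMIs of a gene or group, scaled to a common total of the class) in the losartan, 6521 in the saline and 5391 in the uninjured library. Nuclear complex I RNA was nearly level, at 4575, 4493 and 4356 CPM, and complex III RNA at 1636, 1610 and 1474 CPM. Complex V RNA was 4162, 4155 and 4365 CPM. Complex II RNA had the opposite order to this complex IV sum, at 179 CPM in the losartan, 226 in the saline and 242 in the uninjured library. A single gene, Ndufa4, made up much of complex IV, with 2951, 1884 and 1489 CPM. Without Ndufa4 the complex IV sum was lower in losartan than in saline cells, and lowest in uninjured cells. The order of losartan above saline in complex IV thus rested on this gene.

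Saline and uninjured epithelium were compared first, where injury, animal and library cannot be told apart. Of the 89 nuclear genes, 81 reached 10 CPM in 1 of these libraries. The other 8 were Cox4i2, Cox6a2, Cox6b2, Cox7a1, Cox7b2, Cox8b, Cox8c and Sdhaf3. On the scale of log2(CPM + 5), 3 of the 81 were at least 1.5-fold higher and 3 at least 1.5-fold lower in saline cells, against backgrounds of 16.4% of all measured genes higher and 30.3% lower. The median member had a log2 ratio of 0.07, where the median of all genes was −0.23.

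The 3 higher members belonged to complexes II, III and IV. Cox6a1, a widely used complex IV subunit, stood at 389 CPM in saline against 196 CPM in uninjured cells, a ratio of 1.98 (1.94 to 2.03). Sdhc, a membrane anchor of complex II, stood at 82.9 against 42.0 CPM, and Uqcrq of complex III at 270.3 against 154 CPM. Cox7a2l, which in mice helps join complexes III and IV into supercomplexes, was lower at 133 CPM in saline against 348 CPM in uninjured cells, a ratio of 0.384 (0.371 to 0.396). Sdhb, the iron-sulfur subunit of complex II, was lower at 54.5 against 102 CPM, and Ndufb4 of complex I at 80.3 against 129.8 CPM. Complex II was thus split, with one anchor higher and the iron-sulfur subunit lower, while Sdha, its flavin subunit, was at 36.5 against 52.3 CPM. In complex IV, 11 of 12 measured members had a log2 ratio above 0, with a median of 0.35.

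The mitochondrial genes differed in both directions. Of the 13 genes, 4 were at least 1.5-fold lower in saline than in uninjured epithelium and none was higher by that size, a share near the background of 30.3% lower. All 4 encode complex I subunits: mt-Nd2 at 363 against 581 CPM, mt-Nd4 at 780 against 1307 CPM, mt-Nd4l at 142 against 270.4 CPM and mt-Nd5 at 199.8 against 310.1 CPM. Another complex I gene, mt-Nd1, did not follow them, at 1353 against 1277 CPM. mt-Co1, the catalytic subunit of complex IV, stood on the other side at 3038 against 2293 CPM. Summed mitochondrial complex I RNA was 2913 CPM in saline against 3828 CPM in uninjured cells, and summed mitochondrial complex IV RNA 7073 against 6648 CPM. mt-Co2, a further core subunit of complex IV, stood at 2195 against 2083 CPM, and mt-Cytb of complex III at 1368 against 1616 CPM.

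Losartan and saline epithelium, both after NM injury, were compared next, where drug, animal and library cannot be told apart. Only 2 of 81 members were at least 1.5-fold higher and 1 lower in losartan cells, against backgrounds of 2.63% higher and 8.15% lower. Ndufa4 stood at 2951 CPM in losartan and 1884 CPM in saline cells, a ratio of 1.57 (1.55 to 1.58). Ndufa3 of complex I stood at 92.7 against 58.8 CPM. Sdhc was lower, at 50.4 against 82.9 CPM, which is close to its 42.0 CPM in uninjured cells. Atp5b, the catalytic beta subunit of ATP synthase, had a ratio of 0.681 at 219 against 322 CPM and did not pass 1.5-fold on the log2(CPM + 5) scale. Among mitochondrial genes only mt-Nd3 passed that size, at 100.7 against 59.6 CPM. Cox7a2l was at 112, 133 and 348 CPM in losartan, saline and uninjured cells, so both injured libraries lay below the uninjured one. Against uninjured epithelium, 6 of 81 members were higher and 4 lower in losartan cells, with backgrounds of 12.9% and 37.3%.

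Depth and make-up differed beside these epithelial values. Median UMIs per epithelial-like cell were 23270 in the losartan, 4923 in the saline and 14380 in the uninjured library, and injured and uninjured epithelial cells lay in separate clusters, with 1 exception in each direction. Cluster 4, led by Sprr2f and Sprr1a, held 861 losartan, 516 saline and 1 uninjured cell, and the shallow cluster 16 held 176 losartan and 322 saline cells. Uninjured cells lay in 8 other clusters. The median cell had 0.691% mitochondrial UMIs in both injured libraries and 1.37% in the uninjured library, although the summed shares were close. Within cluster 4 the nuclear share was 1.80% in losartan and 1.69% in saline cells. There 2 of 81 members were higher and 1 lower, against backgrounds of 2.64% and 8.08%. The Ndufa4 difference lay in cluster 4, at 2975 CPM in losartan and 1914 CPM in saline cells. In cluster 16 Ndufa4 was closer, at 1010 and 908 CPM. In cluster 16 the mitochondrial share was 1.06% in losartan and 0.656% in saline cells, and 9 mitochondrial genes were at least 1.5-fold higher in losartan cells. The median cell of cluster 16 ran the other way, with 0.0312% mitochondrial UMIs in losartan and 0.421% in saline cells. None of its 82 nuclear members was higher by that size and 4 were lower, against backgrounds of 16.4% and 15.4%. The part that depth played in these differences was not tested.

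Members also differed among the uninjured epithelial clusters, all from 1 library. Over these 8 clusters, 82 members reached 10 CPM, their highest cluster stood a median of 1.498-fold above their lowest, and 16 spanned over 2-fold. Ndufa4 spanned 3.51-fold, with 2723 CPM in cluster 9, led by Akr1b7, Ly6g6c and Hopx, and 2623 CPM in cluster 17, led by Psca and Muc4. It had 773 CPM in cluster 3 and 955 CPM in cluster 2. Atp5a1, the catalytic alpha subunit of ATP synthase, spanned 3.06-fold, with 341 CPM in cluster 13, led by Gpha2, and 108 CPM in cluster 17. Cox7a2l stood at 469 CPM in cluster 2, 177 CPM in cluster 9 and 164 CPM in cluster 17. In cluster 4 it stood at 110 CPM in losartan and 130 CPM in saline cells, below all 8 uninjured clusters. In cluster 16, the other injured epithelial cluster, it stood at 300.4 CPM in losartan and 241 CPM in saline cells, above uninjured clusters 9 and 17. Mitochondrial shares in the 8 clusters spanned 0.947% in cluster 9 to 2.47% in cluster 13, a wider span than the nuclear 1.46% in cluster 17 to 1.70% in cluster 5.

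**Figure D2:**
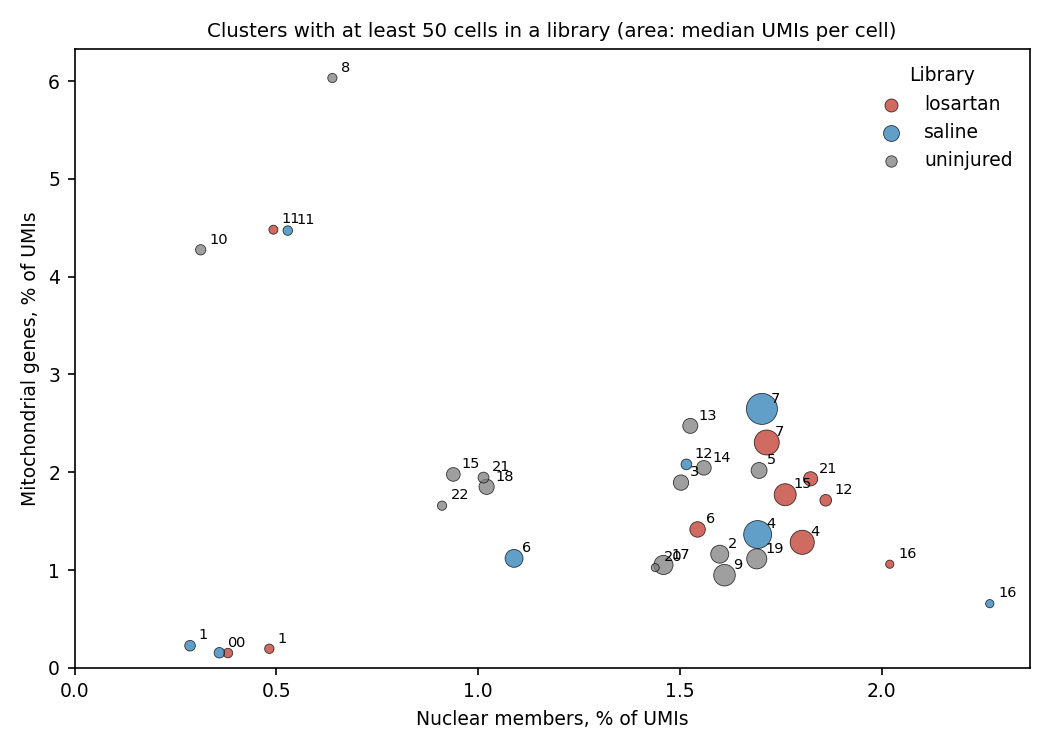
Share of UMIs (%) of the nuclear members (horizontal) against the mitochondrial genes (vertical) for each cluster and library. Cluster 11 lies at 4.48% (losartan) and 4.47% (saline) mitochondrial UMIs with under 0.53% nuclear, and the neutrophil clusters lie at the low corner.

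**Figure D3:**
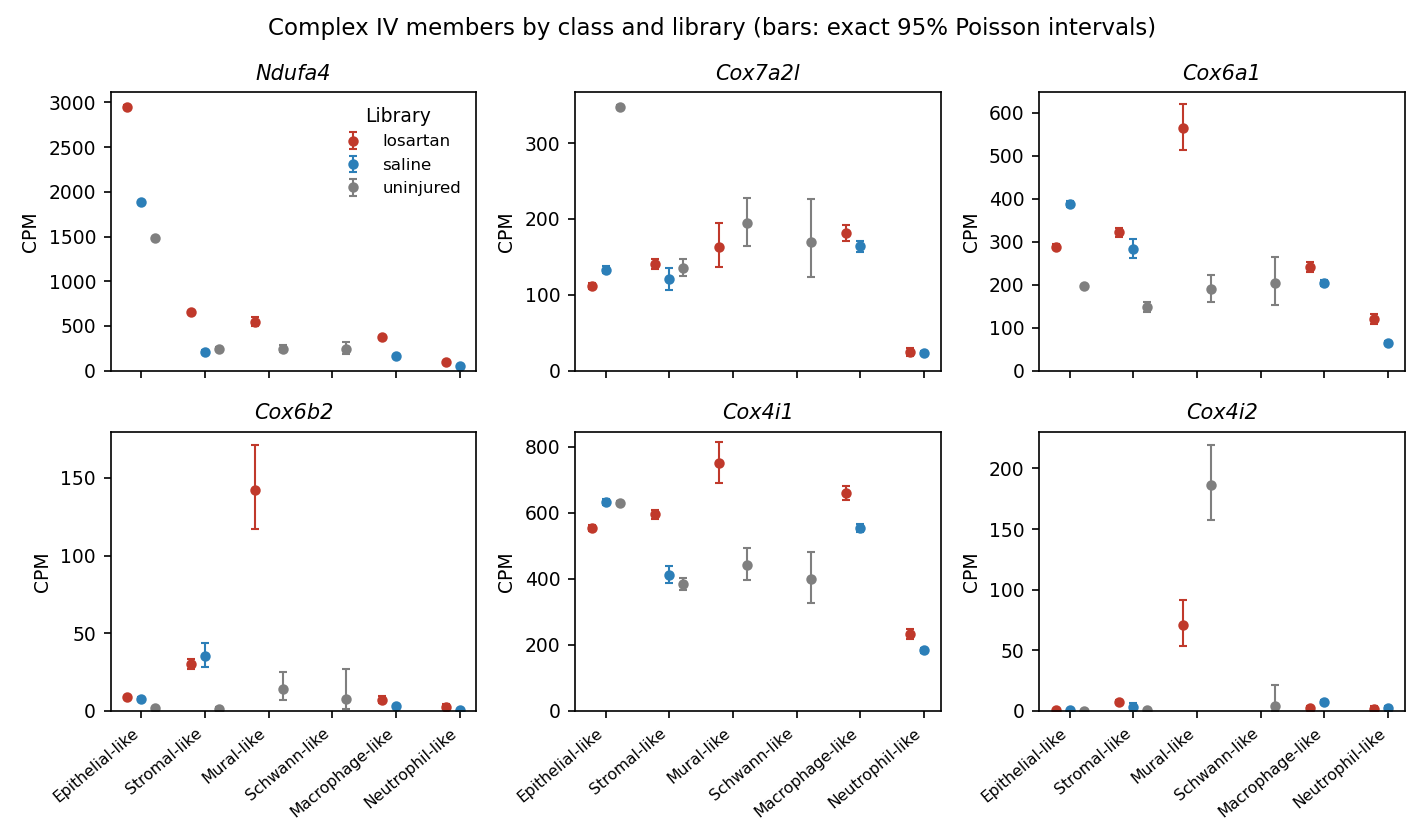
CPM (linear axes from 0) of 6 complex IV members in each class and library, with exact 95% Poisson counting intervals. Ndufa4 stands at 2951, 1884 and 1489 CPM in losartan, saline and uninjured epithelium, and Cox4i2 stays at or below 7.2 CPM outside mural-like cells.

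Genes around the chain were read from lists of related pathways, which give the setting of these values. In saline against uninjured epithelium, 13 of 16 measured glycolysis genes were at least 1.5-fold higher and 1 lower, with a median log2 ratio of 1.92. The glycolytic enzyme Tpi1 stood at 461 against 87.2 CPM, and Ndufa4l2, a relative of Ndufa4 induced by low oxygen, at 85.8 against 0.223 CPM. Of 9 genes for the entry of pyruvate into mitochondria, none was higher and 6 were lower by that size, among them the pyruvate carrier subunit Mpc2 at 131 against 411 CPM. Assembly factors of the chain had 1 gene higher and 10 lower of 37, and mitochondrial ribosomal proteins 4 higher and 7 lower of 75, beside the background of 16.4% higher and 30.3% lower. In losartan against saline epithelium, 12 of 16 glycolysis genes were lower and none was higher, with a median of −0.74. Pgk1, a glycolytic kinase, stood at 202 against 427 CPM, and Ndufa4l2 at 13.4 against 85.8 CPM. None of 29 assembly factors, 15 genes of the citric acid cycle and 8 genes of mitochondrial DNA expression passed 1.5-fold in that comparison.

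Stromal values depended on which clusters a library contributed. Cluster 11 held 310 losartan, 677 saline and 1 uninjured cell. Cluster 15, led by Mmp3 and Timp1, held 418 losartan, 17 saline and 72 uninjured cells, and cluster 18, led by the keratocyte gene Kera, held 359 uninjured cells and none of the injured libraries. Cluster 11 was shallow, with median depths of 2187 UMIs in losartan and 2753 UMIs in saline cells, and the nuclear RNA Malat1 took 4.18% and 4.48% of its UMIs. Its mitochondrial share was 4.48% in losartan and 4.47% in saline cells, and its nuclear member share 0.492% and 0.528%. Cluster 15 had 1.77% mitochondrial and 1.76% nuclear member UMIs in losartan cells, with a median of 25374 UMIs. Across the 728 losartan stromal cells, which span both clusters, the 2 shares had a Spearman rank correlation of −0.64. Within each cluster it was near 0, at −0.042 in cluster 11 and −0.057 in cluster 15 losartan cells. Both are shares of the same cell totals.

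Over the whole stromal class, losartan cells had a higher share of nuclear member RNA and a lower share of mitochondrial RNA than saline cells. Of 82 measured members, 63 were at least 1.5-fold higher and none lower, with a median log2 ratio of 1.09, against backgrounds of 33.9% higher and 17.1% lower and an all-gene median of 0.30. Uqcr11 of complex III stood at 223 CPM in losartan and 57.95 CPM in saline cells, a ratio of 3.85 (3.25 to 4.61). Atp5md, a small subunit of ATP synthase, stood at 222 against 60.9 CPM. Of the 13 mitochondrial genes, 9 were at least 1.5-fold lower. Without cluster 11, an alternative chosen after seeing the data that left 17 saline cells, 2 members were higher and 13 lower. Within cluster 11 the nuclear share had a ratio of 0.933 (0.897 to 0.969) and the mitochondrial share a ratio of 1.00 (0.989 to 1.02) for losartan over saline cells. There 8 of 77 members were higher and 7 lower by 1.5-fold, against backgrounds of 12.8% and 23.9%. Uqcr11 stood at 33.7 CPM in losartan and 19.7 CPM in saline cells of cluster 11. Cluster 11 held 677 of the 694 saline stromal cells and 1925730 of their 2398465 UMIs. It held 10170 of their 19552 nuclear member UMIs, and the rest came from 17 cells. The saline class values above thus rest in large part on these 17 cells.

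Saline against uninjured stroma had the same limit. Of 82 members, 3 were at least 1.5-fold higher and 28 lower, against backgrounds of 12.9% higher and 34.9% lower, and 11 mitochondrial genes were higher. mt-Co1 stood at 9198 CPM in saline against 2393 CPM in uninjured cells. Atp5j of ATP synthase stood at 91.7 against 235 CPM. Without cluster 11, 61 members were higher and none lower. Scaling by the median of ratios shifted the centre of all genes by −0.44 (log2) in this comparison and by 0.38 for losartan against saline, and with it 13 members were higher and 7 lower in saline against uninjured stroma.

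Cluster 15 allowed losartan and uninjured cells of 1 stromal cluster to be set side by side, 418 and 72 cells with medians of 25374 and 8280 UMIs. Nuclear members took 1.76% of UMIs in losartan and 0.938% in uninjured cells, a ratio of 1.88 (1.83 to 1.93), while mitochondrial genes took 1.77% and 1.98%. Of 82 measured members 62 were at least 1.5-fold higher and none lower, with a median log2 ratio of 0.86, against backgrounds of 21.7% higher and 23.6% lower and an all-gene median of −0.06. By complex the higher ones were 29 of 37 of complex I, 2 of 4 of complex II, 5 of 8 of complex III, 12 of 13 of complex IV and 14 of 17 of complex V. Cox5a of complex IV had a ratio of 3.37 (2.65 to 4.35), with 397 CPM in losartan and 118 CPM in uninjured cells. Uqcrq stood at 298 against 81.3 CPM. Sdha, at 51.9 against 58.8 CPM, and Cox7a2l, at 144 against 129.7 CPM, were among the 6 with the lowest ratios. Beside them 75 of 78 cytosolic ribosomal protein genes, 46 of 76 mitochondrial ribosomal protein genes and 11 of 16 glycolysis genes were higher. The part of the depth gap was not tested.

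Macrophage or monocyte-like cells, all of 1 cluster, had higher nuclear and mitochondrial shares in the losartan library. The cluster was led by Pf4, H2-Aa and Cd74, and dendritic cells were not separated from it. Without doublet removal, a cluster named dendritic held 87 losartan and 95 saline cells, beside 424 and 691 macrophage-like cells. The part of dendritic cells in the differences was not tested. The nuclear share ratio was 1.42 (1.41 to 1.43) and the mitochondrial one 1.26 (1.25 to 1.28) for losartan over saline cells. Of 81 members, 22 were at least 1.5-fold higher and none lower, against backgrounds of 5.99% and 4.43%. Of the 81 log2 ratios, 80 were above 0, with a median of 0.42 where the all-gene median was 0.06. Ribosomal protein genes were higher too. The cytosolic ones took 9.69% of UMIs in losartan and 7.41% in saline cells, and the mitochondrial ones 0.362% and 0.276%. Atp5k, which encodes the e subunit of ATP synthase, stood at 113 CPM in losartan and 48.7 CPM in saline cells, a ratio of 2.33 (2.08 to 2.60). Ndufa4 stood at 374 against 168 CPM and Ndufb2 of complex I at 78.6 against 36.95 CPM. Atp5md stood at 239 against 124 CPM and Atp5j2, a further small ATP synthase subunit, at 259 against 139 CPM. Among the 6 members with the lowest ratios were Atp5b, at 227 against 217 CPM, and the complex II anchor Sdhd, at 63.1 against 61.9 CPM. Complex II was the complex with the lowest median, 0.20 over 4 genes, and complex IV the one with the highest, 0.55 over 12 genes.

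Among mitochondrial genes of these macrophage-like cells, 4 were at least 1.5-fold higher in the losartan library. mt-Nd3 stood at 107.6 against 46.0 CPM, mt-Nd4l at 243 against 152 CPM, mt-Nd2 at 437 against 288 CPM and mt-Atp8 at 67.1 against 38.5 CPM. mt-Co1, at 2920 against 2670 CPM, and mt-Nd6, at 18.4 against 21.6 CPM, differed less. Glycolysis genes went the other way, with 6 of 15 lower and none higher by 1.5-fold, led by the glucose transporter Slc2a1 at 55.96 against 122.5 CPM. The mitochondrial antioxidant genes Prdx5, at 590.2 against 1643 CPM, and Sod2, at 243 against 554 CPM, were lower too. Median depth was 11400 UMIs in losartan and 16004 in saline cells. Epithelial markers took 0.0461% of their UMIs with losartan and 0.0195% with saline, and neutrophil markers 0.17% and 0.252%. Their part in the differences was not tested.

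Neutrophil-like cells fell into 2 clusters of very different size in the 2 injured libraries, so they were compared by cluster. Cluster 0, led by Ccl3, Ccl4 and Tnf, held 207 losartan and 2054 saline cells, and cluster 1, led by Retnlg and S100a9, held 1149 and 836. In cluster 0 the nuclear share was 0.380% in losartan and 0.359% in saline cells, a ratio of 1.06 (1.01 to 1.11). Of 78 members 8 were higher and 8 lower by 1.5-fold, against backgrounds of 10.1% and 14.3%. In cluster 1 the nuclear share was 0.482% in losartan and 0.286% in saline cells, a ratio of 1.69 (1.64 to 1.73). There 53 of 75 members were at least 1.5-fold higher and none lower, with a median log2 ratio of 0.84, against backgrounds of 24.1% and 4.48% and an all-gene median of 0.24. Mitochondrial genes did not follow, with 0 of 11 measured past 1.5-fold and a share of 0.195% in losartan and 0.226% in saline cells. Over the whole class 23 of 77 members were higher and 2 lower, against backgrounds of 12.4% and 6.91%.

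In cluster 1 the gene with the highest ratio was Ndufb5 of complex I, at 25.7 CPM in losartan and 6.50 CPM in saline cells, a ratio of 3.95 (2.43 to 6.66) from 77 and 22 UMIs. Ndufa6 stood at 38.98 against 12.99 CPM, Cox7b at 58.3 against 20.7 CPM, Ndufa4 at 98.6 against 38.1 CPM and Atp5j2 at 56.3 against 20.7 CPM. Sdhd of complex II had the lowest ratio, 0.846 (0.619 to 1.15), at 24.99 against 29.5 CPM. By complex, 25 of 33 members of complex I, 1 of 4 of complex II, 5 of 8 of complex III, 7 of 12 of complex IV and 15 of 17 of complex V were higher. Cytosolic ribosomal protein genes moved by a similar size, with 70 of 77 higher and a median of 1.05. Epithelial markers took 0.164% of UMIs in losartan and 0.0421% in saline cells of cluster 1, and 0.161% and 0.0458% in cluster 0, against 6.7% and 5.41% in the epithelium itself. The part of these epithelial markers was not tested.

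**Figure D4:**
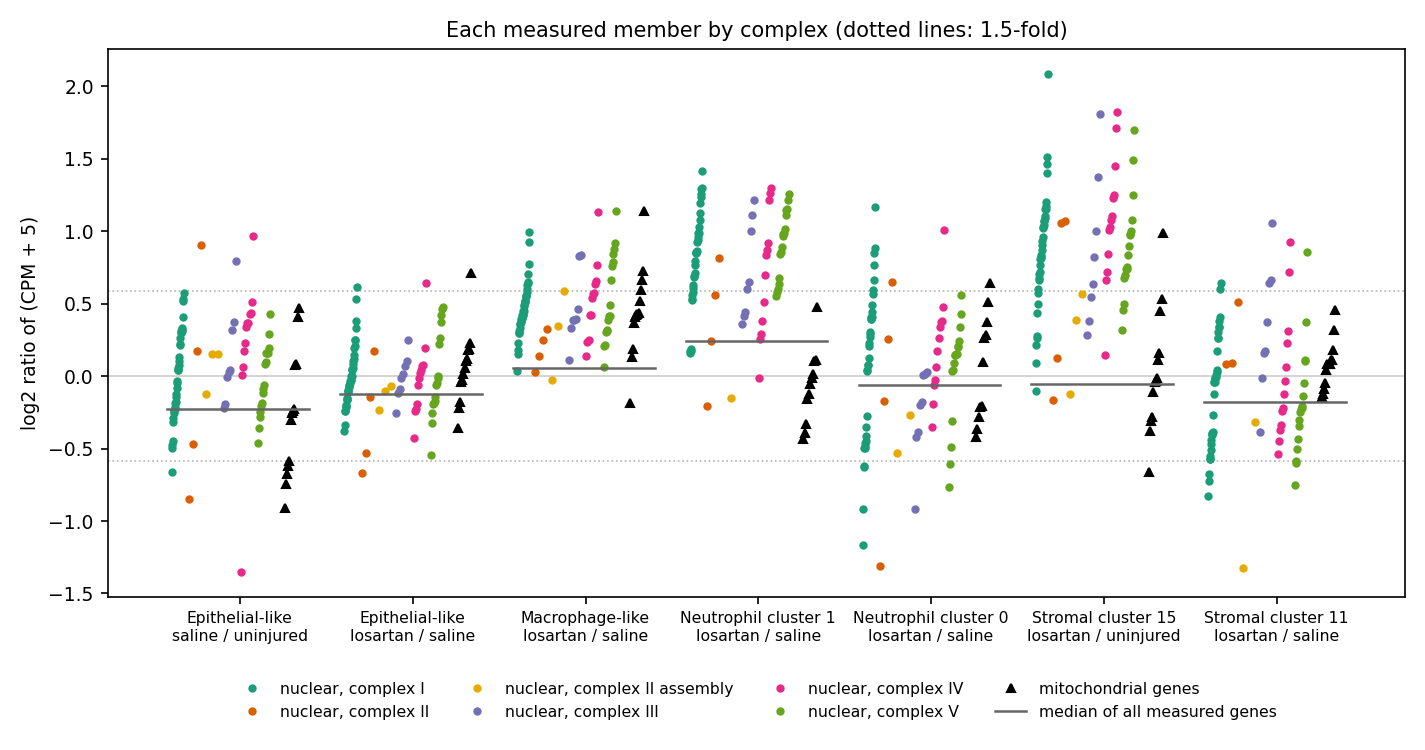
Log2 ratio of CPM + 5 of every measured member, by complex, in 7 comparisons, with the median of all measured genes as a grey line and 1.5-fold as dotted lines. In macrophages 80 of 81 nuclear members lie above 0, in neutrophil cluster 1 and stromal cluster 15 most lie above the upper dotted line, and in clusters 0 and 11 they lie on both sides of 0.

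Mural-like cells, which wrap small vessels, were the one class with a high level of Cox4i2. There were 73 losartan and 150 uninjured cells, and 9 saline cells were too few to compare. Nuclear members took 1.82% of UMIs in losartan and 1.01% in uninjured cells, a ratio of 1.80 (1.75 to 1.85), and mitochondrial genes 1.93% and 1.95%. Of 84 measured members, 60 were at least 1.5-fold higher and 2 lower, against backgrounds of 24.9% and 19.6%. Mitochondrial ribosomal protein genes took 0.459% of UMIs in losartan and 0.235% in uninjured cells. Median depth was 9152 UMIs in losartan and 4315.5 in uninjured cells, and its part was not tested. The marker score of the next class lay only 0.057 below that of mural cells. At resolution 0.4 no cluster was named mural. Cox6b2, an isoform known in mice from testis, stood at 142 CPM in losartan and 14.0 CPM in uninjured cells, where the uninjured value rests on 11 UMIs, a ratio of 10.1 (5.45 to 20.9). Cox6a1 stood at 565 against 189 CPM. Cox4i2, the isoform of subunit 4 known from lung and small vessels, was lower at 70.5 against 186 CPM, a ratio of 0.378 (0.273 to 0.518).

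Cox4i1, the general isoform of subunit 4, stood at 553 CPM in losartan, 633 CPM in saline and 631 CPM in uninjured epithelium, and at 595, 411 and 384 CPM in stroma. Cox4i2 reached at most 7.2 CPM in the other classes. Cox6b2 stood at 8.54 CPM in losartan, 7.67 CPM in saline and 1.59 CPM in uninjured epithelium, and at 30.1, 35.4 and 0.962 CPM in stroma. The muscle and testis isoforms Cox6a2, Cox7b2 and Cox8c stayed below 1 CPM in each class, Cox7a1 reached at most 8.81 CPM, in losartan mural cells, and Cox8b had no UMI in any class. Ndufa4 ran from 2951 CPM in losartan epithelium to 53.6 CPM in saline neutrophils.

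There were 5 unnamed clusters. Of these, clusters 7, 8, 10 and 20 scored highest for epithelium but were not counted in the epithelial-like class. Cluster 7, led by Kcnq5, Col18a1 and Mcam, held 863 losartan and 388 saline cells. It had 17 epithelial markers detected. Its total was 28882722 losartan and 21447378 saline UMIs, beside 29049671 and 30124124 in the epithelial-like class. Its Ndufa4 level was 1070 CPM in losartan and 888 CPM in saline cells. Its nuclear share was 1.72% in losartan and 1.70% in saline cells, beside mitochondrial shares of 2.30% and 2.65%. None of its 82 members was higher and 1 lower by 1.5-fold, against backgrounds of 2.53% and 5.49%. Cluster 12, led by Ddit3 and Eda2r, held 372 losartan and 221 saline cells, with 14 of 83 members higher and none lower, against backgrounds of 7.78% and 10.3%. In the uninjured library, clusters 8 and 10 held 1199 and 1101 cells with mitochondrial shares of 6.03% and 4.27% beside nuclear shares of 0.639% and 0.312%. Stromal cluster 11 had 4.48% and 0.492% in losartan cells. Cluster 20 held 245 uninjured cells, with 1.44% nuclear and 1.02% mitochondrial UMIs, and its Ndufa4 level was 1174 CPM.

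The 13 mitochondrial genes kept a wide range of levels in every class. In the uninjured epithelium mt-Atp6 was highest at 2381 CPM and mt-Nd6, the only one read from the opposite strand, was lowest at 10.3 CPM. In neutrophils mt-Atp6 stood at 309 CPM in losartan and 290.4 CPM in saline cells, and mt-Atp8 and mt-Nd6 were under 10 CPM.

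**Figure D5:**
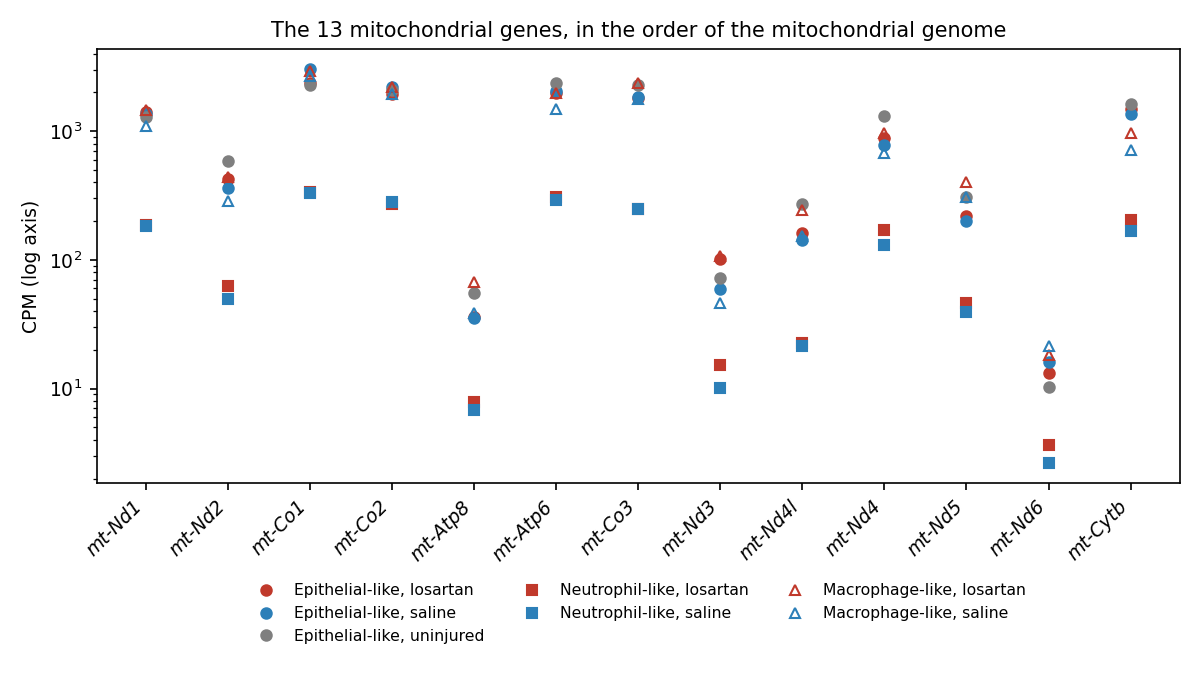
CPM of the 13 mitochondrial genes on a log axis, in the order of the mitochondrial genome, for epithelial-like, macrophage-like and neutrophil-like cells of each library. Neutrophil squares lie below the epithelial and macrophage points for each gene, and mt-Nd6 is lowest in each class and library drawn.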

How the data were processed

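The authors deposited 1 matrix of UMI counts (genes by barcodes) for each library. The file headers name Cell Ranger 8.0.0, and the submitters' processing notes name GRCm38. The sources used here do not give the annotation release, whether introns were counted, which transcript end was read or whether doublets had been removed. Barcodes with 500 or more detected genes and no more than 20% mitochondrial UMIs were kept, and doublets were scored against 2 simulated doublets per cell and removed at 0.8% per 1000 barcodes (243 losartan, 334 saline and 1334 uninjured cells). This left 4919 of 5887 losartan, 5800 of 6814 saline and 11233 of 13270 uninjured barcodes, with 83115022, 79392573 and 143349345 UMIs. There were 124 losartan, 115 saline and 152 uninjured barcodes above 20%, of which 33, 45 and 20 had 500 or more genes and were taken out by this limit alone, so the highest mitochondrial shares are cut off.

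Clustering used 2000 variable genes without any member, 30 principal components, 20 neighbours and the Leiden method at resolution 0.8, on all libraries together and without batch correction. A class needed 3 or more detected markers, and at least 50 cells in a library to be compared. UMIs were summed per class and library. A gene was measured at 10 CPM or more in 1 of the libraries compared, and 1.5-fold refers to the ratio of CPM + 5 and describes size. Intervals are exact: Clopper-Pearson for shares, Poisson for levels and conditional binomial for ratios. Members to name were all mitochondrial genes, the 6 nuclear members with the highest and the 6 with the lowest log2 ratio per comparison, and the isoforms and complex sums described. The text gives values for a part of these, and one of them is not reported here. The members and lists were chosen with earlier results of these data known. UMI counts are not divided by gene length. Median-of-ratios scaling would shift the centre of all genes by −0.18 (log2) in epithelium for saline against uninjured and by −0.12 for losartan against saline, by 0.20 in cluster 1, by −0.14 in cluster 11 and by 0.12 in mural cells.

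Counts of members in epithelial-like and stromal-like cells were recomputed under alternatives. So were the mitochondrial to nuclear ratios of these classes and of macrophage-like and neutrophil-like cells. There were 13 other settings, and 5 more were chosen after seeing the data. They covered filters, scaling, weighting, fold size, thinning of cells to 1500 UMIs, clustering and class make-up. Counts of members in macrophage-like, neutrophil-like and mural-like cells and in single clusters were not recomputed. The fold rule was tested on simulated counts. Software was Python 3.11.15, numpy 2.4.6, pandas 2.3.3, scipy 1.17.1, scikit-learn 1.9.0, matplotlib 3.10.9, igraph 0.11.9 and leidenalg 0.10.2.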

Additional observations from a re-analysis of the deposited data

Results flagged for a closer look

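The change of mitochondrial against nuclear member RNA between saline and uninjured cells lay in opposite directions in 2 cell classes. In epithelial-like cells the mitochondrial to nuclear ratio in the saline library was 0.86 times that in the uninjured library (0.785 against 0.913 mitochondrial UMIs per nuclear member UMI). It was 1.21 times with cluster 7 counted as epithelial and 1.02 times with all clusters scored highest for epithelium, which turns its direction. In stromal fibroblast-like cells it was 2.64 times as large (4.89 against 1.85). With 1 library per group the difference between the classes was not tested. Cluster 11 held 677 of the 694 saline stromal cells, and without it the stromal value was 0.548.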

How the results depend on the processing

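Of the values recomputed under the alternatives, 115 were labelled the same, 62 moved and 5 reversed. All 5 reversed values were mitochondrial to nuclear ratios. Counts of higher and lower members were scored separately, and each was labelled only as the same or moved. Counts whose balance of higher and lower members turned are therefore among the 62, as for the stromal counts given below. The label reversed thus does not cover every turn of direction. The cause of the changes was not tested.

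The epithelial counts of members moved as follows. For saline against uninjured, 3 higher became 10 with median-of-ratios scaling, 9 with cells weighted alike, 0 at 2-fold, 10 thinned and 8 with all clusters scored highest for epithelium, and 3 lower became 1 at 2-fold. For losartan against saline, 2 higher became 4 with median-of-ratios scaling, 1 with cells weighted alike, 0 at 2-fold, 1 thinned, and 0 with cluster 7 or all such clusters added, and 1 lower became 0 with median-of-ratios scaling, 2 with cells weighted alike, 0 at 2-fold and 5 thinned.

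The epithelial mitochondrial to nuclear ratio of saline over uninjured (0.86) was 0.936 without a mitochondrial filter, 0.801 at no more than 10% mitochondrial, 0.778 from 200 genes, 0.843 without doublet removal, 0.636 with cells weighted alike, 0.669 thinned, 0.823 at resolution 0.4, 0.866 with members among the variable genes, 0.882 without cluster 16 and 0.877 without Ndufa4. It reversed to 1.21 with cluster 7 counted as epithelial and to 1.02 with all such clusters. For losartan over saline (0.904) it was 0.805, 0.924, 0.912 and 0.946 under the 4 filter settings in that order, 0.898 with members among the variable genes, 0.921 with cluster 7 or all such clusters, 0.885 without cluster 16 and 0.962 without Ndufa4. It reversed to 1.03 with cells weighted alike and to 1.09 thinned.

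The stromal values rested on cluster 11. For saline against uninjured, 3 higher became 13 with median-of-ratios scaling and 61 without cluster 11, and 28 lower became 7, 57 (cells weighted alike), 7 (2-fold), 54 (thinned) and 0 (without cluster 11). The ratio of 2.64 was 2.77 without a mitochondrial filter, 2.88 from 200 genes, 3.91 with cells weighted alike and 3.96 thinned, and reversed to 0.548 without cluster 11, on 17 saline cells. For losartan against saline, 63 higher became 2 and 0 lower became 13 without cluster 11. The ratio of 0.236 was 0.227 without a mitochondrial filter, 0.228 at no more than 10%, 0.221 from 200 genes, 0.309 with cells weighted alike, 0.301 thinned and 0.991 without cluster 11.

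The macrophage ratio of losartan over saline (0.892) was 0.86 without a mitochondrial filter, 0.903 from 200 genes, 0.863 without doublet removal and 0.947 thinned. The neutrophil ratio (0.774) was 0.966 without a mitochondrial filter, 0.746 from 200 genes, 0.93 without doublet removal and 0.747 with members among the variable genes. Thinning left out 168 losartan, 221 saline and 127 uninjured epithelial cells. No paired analysis was possible because each group had 1 library. Depth limits the rows with few UMIs, such as uninjured Cox6b2, and cells of different depth were not made equal in the main values.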
